A study of Homo sapiens with 24 samples.

Results

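The early transcript response to interferon beta was measured in A549 cells, which derive from a human lung adenocarcinoma, after transfection with a control siRNA. The genes described had at least 1 TPM (transcripts as a share of a fixed total) in at least 3 of the 6 libraries compared. These were 14297 of the 16062 genes tested across the series. In both groups the cells had been transfected 48 h earlier with a control siRNA against FLuc, firefly luciferase, a gene that human cells lack (siFLuc). One group of 3 libraries then received IFN-B at 1000 U/mL for 8 h, and the other group of 3 a mock treatment for 8 h. RNA of the whole culture was made into stranded mRNA libraries, so the values are averages over a transfected population of 1 line, in which fewer responding cells and less RNA per cell cannot be told apart. The columns of each group are numbered 1, 2 and 4, while the labels number the samples 1 to 3, so the libraries numbered 4 were placed by their group only. Nothing states that the 3 libraries of a group came from separate cultures. The p-values then measure only the spread between libraries within groups, over all 24 of the series, which may be technical. Of the 24 libraries of the series, the others came from siFLuc cells at 12 h and from cells given a pool of siRNAs against BOP1, a ribosome assembly factor, at 8 h and 12 h.

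Interferon beta is a type I interferon. It binds the IFNAR1 and IFNAR2 receptor chains, and the kinases TYK2 and JAK1 then phosphorylate STAT proteins. With IRF9 these form ISGF3, a transcription factor that binds interferon-stimulated response elements in the promoters of antiviral genes. Epithelial cells respond with proteins that sense or degrade foreign RNA, block membrane fusion, trim and present peptides, and restrain the signal itself.

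Libraries of the same group had Pearson r of log2(TPM + 1) from 0.978 to 0.984, and libraries of different groups from 0.932 to 0.954. Between 13844 and 14423 genes per library reached 1 TPM, and mitochondrial transcripts took 12.7% to 13.6% of TPM. Sequencing depth is unknown, since TPM keeps none. Markers of the labelled line were present: keratins, AKR1B10 and ALDH1A1 were abundant, with 10 of 13 epithelial and A549 markers measured and a summed level of 12463 to 13346 TPM in mock and 12438 to 13587 TPM in IFN libraries. SFTPB and NKX2-1 were listed at 0. Of 12 leukocyte markers 2 were measured, PTPRC reached at most 0.021 TPM, and CD3D, CD3E and MS4A1 were listed at 0. Their summed level of 48.0 to 57.3 TPM in mock and 180 to 232 TPM in IFN libraries was almost all CD68, a lysosomal protein, which rose by 2.08 on the log2 scale. Fibroblast markers summed to 5.73 to 14.2 TPM in mock and 5.93 to 13.3 TPM in IFN libraries, and endothelial markers to 0.361 to 0.390 and 0.224 to 0.340 TPM. BOP1 was at 66.1, 55.9 and 77.3 TPM in the mock and 56.0, 48.0 and 64.4 TPM in the IFN libraries numbered 1, 2 and 4.

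The response was lopsided in size. Limma was run on log2(TPM + 1) without pairing of libraries. Each gene's spread was estimated over all 24 libraries, so an SE or p-value reflects the other groups too. At a Benjamini-Hochberg adjusted p under 0.05, 881 genes were higher with IFN (6.16% of the genes described) and 794 lower (5.55%). Log2 changes refer to log2(TPM + 1) throughout, so those of genes near 1 TPM are smaller than the change in TPM itself. Of the higher genes 446 rose by at least 1, 176 by at least 2, 64 by at least 4 and 17 by at least 6. Of the lower genes 62 fell by at least 1, 6 by at least 2, and 1 by at least 3. The other 732 lower genes and 435 higher genes moved by less than 1. The median change over all 14297 genes was -0.10, and the median standard error (SE) 0.18. The 3 IFN values lay wholly outside the 3 mock values for 1652 of the 1675 called genes and for 4291 genes in all.

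How the small changes divided between the directions depended on scaling. The higher share of the calls was 52.6%, but rescaling by median of ratios gave 67.6%, with 1077 higher and 516 lower genes, against 50.6% after quantile normalization (951 and 930). The replicate block gave the same-numbered libraries of a time, over both siRNAs and both treatments, a shared term. With it 1259 genes were higher (8.81% of the genes described) and 2000 lower (14.0%), so that 38.6% of the calls were higher. Counts with the block below are to be read against those shares. In a fit of only the 2 groups 722 were higher and 425 lower, and without the libraries numbered 4 the counts were 1134 and 1361. Leaving out 1 library at a time gave 686 to 830 higher and 421 to 653 lower genes; without the mock library numbered 1 there were 421 lower genes and without the IFN library numbered 2 there were 422.

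**Figure D1:**
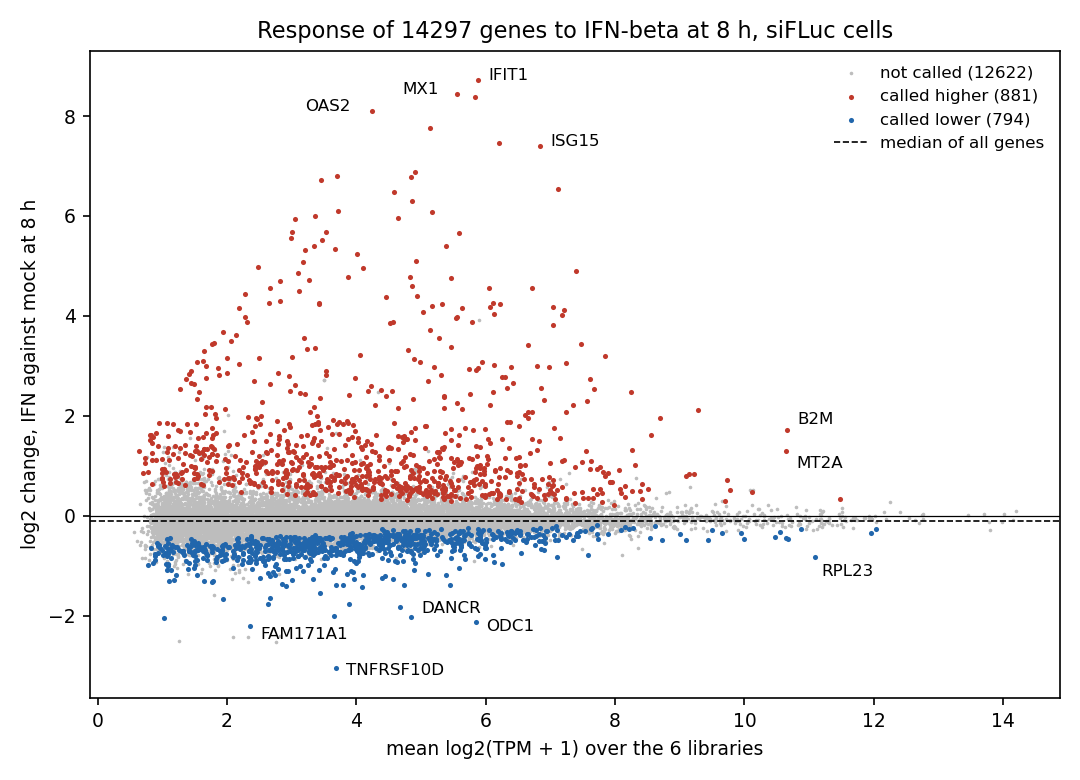
Log2 change between IFN and mock at 8 h (vertical axis) against the mean log2(TPM + 1) over the 6 libraries (horizontal axis), 1 point per gene, with 881 genes called higher in red, 794 called lower in blue and the rest in grey. The rises reach 8.72 (IFIT1) at low to middle mean levels, the falls reach -3.06 (TNFRSF10D), and the dashed line marks the median of all genes at -0.10.

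As a share of the transcript pool, the response was a gain by few genes and a thin loss by many. The 446 genes that rose by at least 1 summed to 9594, 9322 and 8428 TPM in the mock libraries numbered 1, 2 and 4, and to 55069, 50584 and 45566 TPM in the IFN libraries. The 794 lower genes summed to 54250, 56305 and 53584 TPM in mock and 37717, 40755 and 40985 TPM in IFN libraries. These sums follow from the calls and are given as a description. By gain in TPM, B2M, the light chain of MHC class I, came first, from 897 ± 36.5 to 2942 ± 276 TPM (SD, n = 3 each; log2 change 1.71). MT2A, a metallothionein that binds zinc and copper, went from 1032 ± 196 to 2504 ± 366 TPM (SD, n = 3 each; 1.29). ISG15, IFI6 and IFIT1 completed the 5 largest gains. The calls came from all levels of expression. Among genes with a mean of at least 100 TPM over the 6 libraries, 10.2% were higher and 4.63% lower (141 and 64 of 1382), and among those under 5 TPM 4.11% and 4.34% (160 and 169 of 3893). A group of 122 genes was under 1 TPM in every mock and at least 1 TPM in every IFN library, of which 100 were called higher. The reverse held for 94 genes, of which 37 were called lower.

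The 12 largest rises belonged to the IFIT family (IFIT1, IFIT2 and IFIT3), the OAS family (OAS2 and OASL), the small membrane proteins IFI27, IFI6 and IFITM1, and MX1, ISG15, CMPK2 and XAF1. They lay between 8.72 and 6.53 on the log2 scale, with limma adjusted p from 2.69e-20 to 6.28e-12. IFIT1, a protein that binds viral RNA lacking 2′-O-methylation of its cap, was at 1.92, 3.81 and 0.676 TPM in the mock libraries numbered 1, 2 and 4. In the IFN libraries it was at 1199, 1305 and 1123 TPM. The IFN values lay within a narrow band while the mock values spread widely, and the groups were far apart. MX1, a GTPase that traps viral ribonucleoproteins, went from 1.60, 2.54 and 0.709 TPM to 979, 839 and 815 TPM (log2 change 8.45, SE 0.19). OAS2, which makes the 2′-5′ oligoadenylate activators of RNase L, went from 0.152, 0.244 and 0.036 TPM to 298, 339 and 298 TPM (8.10, SE 0.15). XAF1, a pro-apoptotic partner of XIAP, went from 0.04, 0.133 and 0.024 TPM to 119, 107 and 108 TPM (6.72, SE 0.11). In all 12 genes the mock library numbered 2 held the highest mock value, and in 10 the library numbered 4 held the lowest.

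**Figure D2:**
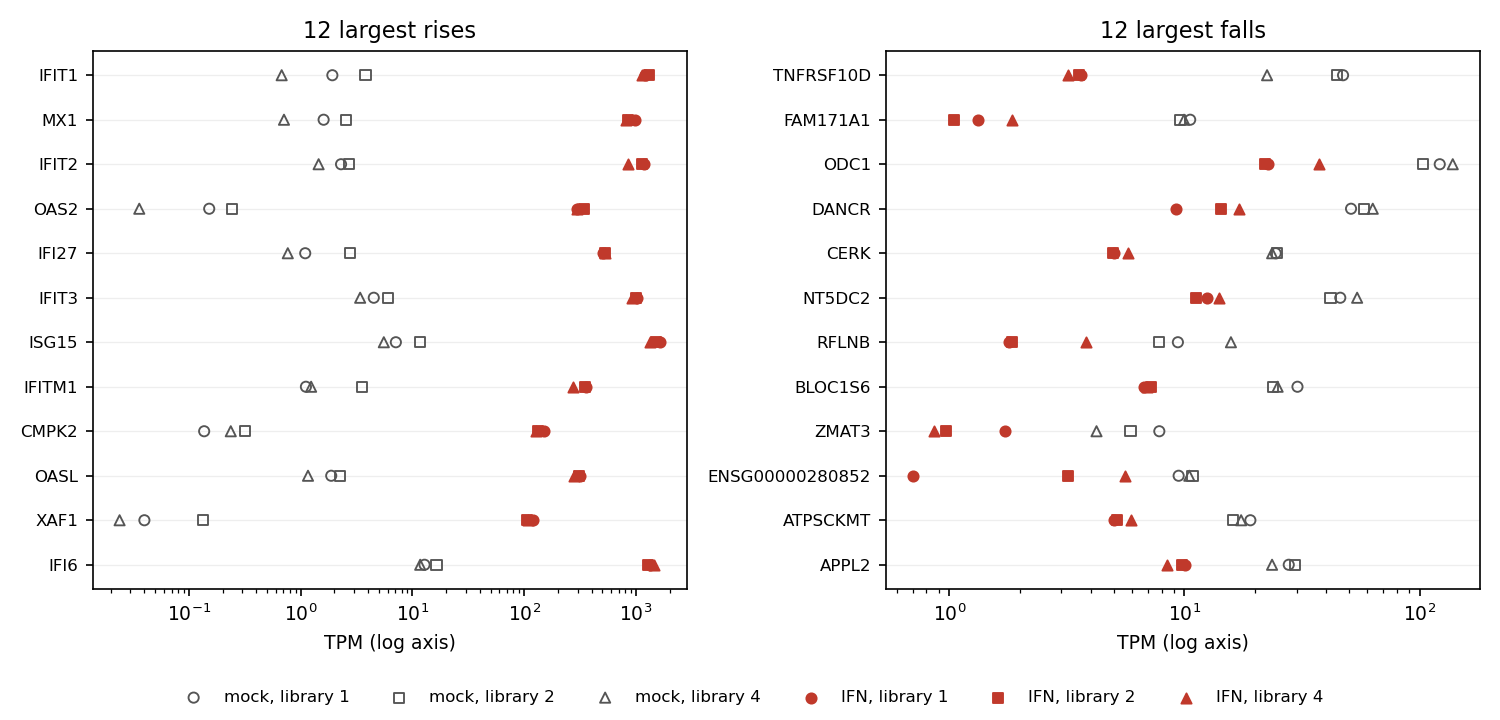
TPM on a log axis in each of the 6 libraries for the 12 largest rises (left) and the 12 largest falls (right), with open grey symbols for mock and filled red symbols for IFN and 1 shape per library number. Groups that do not overlap were a condition for a gene to be shown. The IFN values of the rises lie closer together on the log axis than their mock values.

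Promoter stretches are shown for 6 of these 12 genes and for TNFSF10, CXCL10 and SOCS1, described further on. The genes searched were chosen without regard to sequence. The stretches shown were not: each comes from a gene with a match, and from its window with the most matches. IFIT2, OAS2 and OASL had no window and were not searched. The motif GAAANNGAAA, the core of the interferon-stimulated response element, was searched on both strands in RefSeq windows of 300 bases on GRCh38.p14 (250 before to 50 after an annotated start). Its reverse complement is TTTCNNTTTC, and matches may overlap each other. The following stretches run 5′ to 3′ on the gene's own strand, with matches in capitals and 15 bases on each side.
IFIT1 (chr10:89392492-89392544, plus strand): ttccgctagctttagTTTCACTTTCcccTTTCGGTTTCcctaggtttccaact
IFI27 (chr14:94110613-94110665, plus strand): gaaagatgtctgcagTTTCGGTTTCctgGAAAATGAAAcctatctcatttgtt
IFIT3 (chr10:89327826-89327899, plus strand): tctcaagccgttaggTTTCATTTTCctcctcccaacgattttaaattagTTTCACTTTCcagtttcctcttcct
ISG15 (chr1:1013369-1013414, plus strand): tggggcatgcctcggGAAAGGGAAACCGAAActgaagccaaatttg
IFITM1 (chr11:313985-314058, plus strand): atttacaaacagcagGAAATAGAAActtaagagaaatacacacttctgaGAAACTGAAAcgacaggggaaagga
IFI6 (chr1:27672261-27672363, minus strand): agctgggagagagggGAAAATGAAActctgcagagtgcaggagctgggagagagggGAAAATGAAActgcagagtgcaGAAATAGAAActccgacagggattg
TNFSF10 (chr3:172523593-172523632, minus strand): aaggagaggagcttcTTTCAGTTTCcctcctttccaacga
CXCL10 (chr4:76023694-76023733, minus strand): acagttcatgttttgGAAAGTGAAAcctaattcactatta
SOCS1 (chr16:11256293-11256332, minus strand): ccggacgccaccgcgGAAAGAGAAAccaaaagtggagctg

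IFIT1, IFI27, IFIT3, ISG15 and IFITM1 each held 2 matches in 1 window, which in ISG15 overlap, and IFI6 held 3. MX1 had 1 match, placed after its annotated start and not printed. Windows of CMPK2, XAF1, IRF1, HLA-B, PSMB9, STAT2 and IRF9 held none of these letters, nor did those of ODC1 and DANCR. A match was in 3.57% of all 35116 windows. Among protein-coding genes with a window, the motif was in at least 1 window of 31 of 46 genes that rose by at least 4, of 30 of 70 that rose by 2 to 4, of 31 of 173 that rose by 1 to 2, and of 33 of 332 that rose by less. The shares were 67.4%, 42.9%, 17.9% and 9.94%, against 3.04% of 8555 genes not called and 1.98% of 555 called lower. Of the 40 genes that fell by at least 1, 0 held a match. As a check over whole classes this is void, because a window was found for 73.0%, 69.3% and 75.2% of the genes in the 3 upper classes and 78.4% of those that fell by at least 1, below the 80% required. The counts describe the genes with a window only.

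Of the 7 genes for the receptor, its kinases and ISGF3, 3 rose and 1 fell. STAT2 was at 8.50, 8.42 and 5.61 TPM in the mock and 185, 157 and 126 TPM in the IFN libraries (log2 change 4.20, SE 0.16). IRF9 went from 21.2, 26.2 and 14.6 TPM to 178, 151 and 160 TPM (2.95). IFNAR1 fell by 0.59, from 25.6, 27.5 and 22.0 TPM to 13.4, 18.9 and 16.9 TPM (limma adjusted p = 0.00357). That call was lost in a fit of the 2 groups alone (adjusted p = 0.0692). IFNAR2, TYK2 and JAK1 did not pass; JAK1 had a log2 change of -0.29 (adjusted p = 0.0952), and passed with the replicate block.

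Genes that restrain the pathway rose with it, 5 of 10 measured, and 0 fell. USP18, which removes ISG15 from proteins and blocks the receptor, went from 7.52 ± 0.582 to 228 ± 14.5 TPM (log2 change 4.75; SD, n = 3 each). SOCS1, an inhibitor of the kinases, went from 0.263, 0.307 and 0.294 TPM to 25.8, 16.2 and 13.7 TPM (3.88, SE 0.34). Its groups did not approach each other. TRIM21, a ubiquitin ligase and antibody receptor, rose by 3.37. SOCS3 went from 19.3, 18.3 and 29.6 TPM to 29.7, 29.3 and 39.1 TPM (log2 change 0.55, SE 0.52). It did not pass (limma adjusted p = 0.594), and 1 of 15 alternative settings called it. Among the 6 measured interferon regulatory factors 4 rose. IRF7, the factor that drives interferon alpha genes, went from 3.47 ± 1.20 to 294 ± 18.3 TPM (6.08; SD, n = 3 each), IRF1 from 30.4, 29.6 and 26.9 TPM to 259, 242 and 207 TPM (2.98), and IRF9 and IRF2 were the others. IRF3, which acts by phosphorylation, had a log2 change of 0.19 (adjusted p = 0.443).

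The antiviral effectors rose almost without exception. Of 23 measured genes for RNA-binding and RNA-degrading effectors 22 rose, with a median log2 change of 4.19. All 7 measured MX and GBP GTPases rose (median 5.32), and 2 others listed were under 1 TPM in all 6 libraries. All 18 genes of the IFITM, IFI and other membrane group rose (median 4.66). In any list, a gene under 1 TPM in all mock libraries, such as GBP4, counted as measured only through its IFN values. For such genes a rise was partly fixed by the filter. For comparison the median of all genes was -0.10. OAS1 went from 24.7, 27.5 and 39.0 TPM to 985, 923 and 837 TPM (4.89), and GBP1 from 5.77, 6.13 and 4.60 TPM to 314, 282 and 228 TPM (5.40). IFITM3, which blocks fusion of enveloped viruses, went from 38.1, 38.5 and 28.2 TPM to 736, 613 and 526 TPM (4.12). Members of these families resemble each other in sequence, and how shared reads were assigned is not given in the sources used here. LGALS3BP, a secreted glycoprotein, had one of the smaller rises of its group (1.96) from a high level of 197 to 229 TPM.

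Sensors, the ISG15 system, PARPs and the APOBEC3 and APOL genes followed. Of 16 sensors and adaptors 14 rose (median 2.82). IFIH1 (MDA5), a sensor of long double-stranded RNA, went from 2.18 ± 0.491 to 196 ± 20.6 TPM (log2 change 5.96; SD, n = 3 each), and RIGI, which sees short RNA with a triphosphate end, by 5.66. IFI16 and NMI rose by 3.88 and 2.55. MAVS, the mitochondrial adaptor of both RNA sensors, and CGAS, a DNA sensor, did not pass. They were named after their values were seen, and CGAS, at 0.75 with an adjusted p of 0.0764, passed with the replicate block. All 20 genes of ISG15 conjugation and related ubiquitin ligases rose (median 3.22), among them UBE2L6, the E2 enzyme of ISG15, from 37.0, 34.0 and 34.5 TPM to 634, 581 and 541 TPM (4.02). RNF213 and TRIM25 rose by 3.07 and 2.31. All 9 measured PARP and nuclear body genes rose (median 3.98), with PARP10 at 5.40 and SP100 at 3.08. Of 8 measured APOBEC3 and APOL genes 7 rose (median 2.77), from APOL6 with 4.39 to APOBEC3C with 0.44.

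Antigen presentation rose in 20 of 23 measured genes, with a median of 1.71. PSMB9, a catalytic subunit of the immunoproteasome, went from 9.35, 12.0 and 11.2 TPM to 193, 181 and 173 TPM (log2 change 3.95, SE 0.15). TAP1, a chain of the peptide transporter, went from 16.4 ± 2.95 to 324 ± 29.3 TPM (4.23; SD, n = 3 each). HLA-B went from 47.1, 62.6 and 28.7 TPM to 394, 361 and 314 TPM (2.98). PSME2, a subunit of the proteasome activator PA28, rose by 1.62. The 3 genes not called, CALR, PDIA3 and CANX, encode chaperones of the endoplasmic reticulum, which all cells use; they were named after their values were seen. The standard proteasome had a median change of -0.07. Of its 30 genes 6 rose (20%, against 6.16% of all genes) and 1 fell (3.33%, against 5.55%). PSMA4, a ring subunit of both proteasome kinds, rose most, from 428, 428 and 477 TPM to 772, 841 and 769 TPM (0.84, SE 0.07), and PSMC2 fell by 0.32, a call that 10 of 15 alternative settings kept.

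Secreted and surface signals were mixed. Of 24 measured chemokine and cytokine genes 10 rose (median 0.75), and 18 with the replicate block. TNFSF10 (TRAIL), a death ligand, led with 0.766, 0.954 and 0.158 TPM in mock and 128, 120 and 83.5 TPM in IFN libraries (log2 change 6.11, SE 0.25). CXCL10, which attracts T cells, was at 0, 0.138 and 0.258 TPM in mock and 8.54, 7.77 and 7.77 TPM in IFN libraries. The neutrophil chemokines were already high: CXCL5 rose by 0.47 from 961, 842 and 1018 TPM to 1268, 1182 and 1467 TPM (adjusted p = 0.0534 in a fit of the 2 groups alone), while CXCL8 and CXCL1 had log2 changes of 0.76 and 0.45 that did not pass (adjusted p = 0.239 and 0.257) but did with the replicate block. Of 18 NF-kB subunits and targets 4 rose (median 0.43), 2 to 3 with 1 library left out and 9 with the replicate block. Among them BIRC3, an inhibitor of apoptosis, rose by 1.20 (adjusted p = 0.0291), a call that 8 of 15 alternative settings kept. Checkpoint molecules and NK cell ligands rose in 7 of 14 measured genes, led by IDO1, a tryptophan-degrading enzyme, from 0, 0.322 and 0.053 TPM to 70.1, 57.2 and 44.9 TPM. CD47 and NECTIN2 rose by 0.91 and 1.14. Of 19 complement and acute phase genes 7 rose. SERPING1, the C1 inhibitor, was listed at 0 in all 3 mock libraries and stood at 10.9, 5.89 and 6.29 TPM with IFN.

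Cell death genes rose on both sides of the balance. Of 28 measured genes 17 rose and 1 fell (median 0.84). Beside XAF1 and TNFSF10, the caspases CASP1, CASP4, CASP8 and CASP10 and the pore-forming or necroptotic GSDMD and MLKL rose by 1.07 to 4.70. So did the survival gene MCL1, by 0.77 from 95.6 ± 6.57 TPM (SD, n = 3). These members other than XAF1, TNFSF10 and MCL1 were named after their values were seen. The gene that fell was TNFRSF10D, a decoy receptor for TRAIL with a truncated death domain. It was at 47.3, 44.4 and 22.5 TPM in the mock and 3.64, 3.56 and 3.20 TPM in the IFN libraries (log2 change -3.06, SE 0.24), the largest fall of any called gene. The mock library numbered 4 held less than the other two, and all 3 IFN libraries lay below it.

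**Figure D3:**
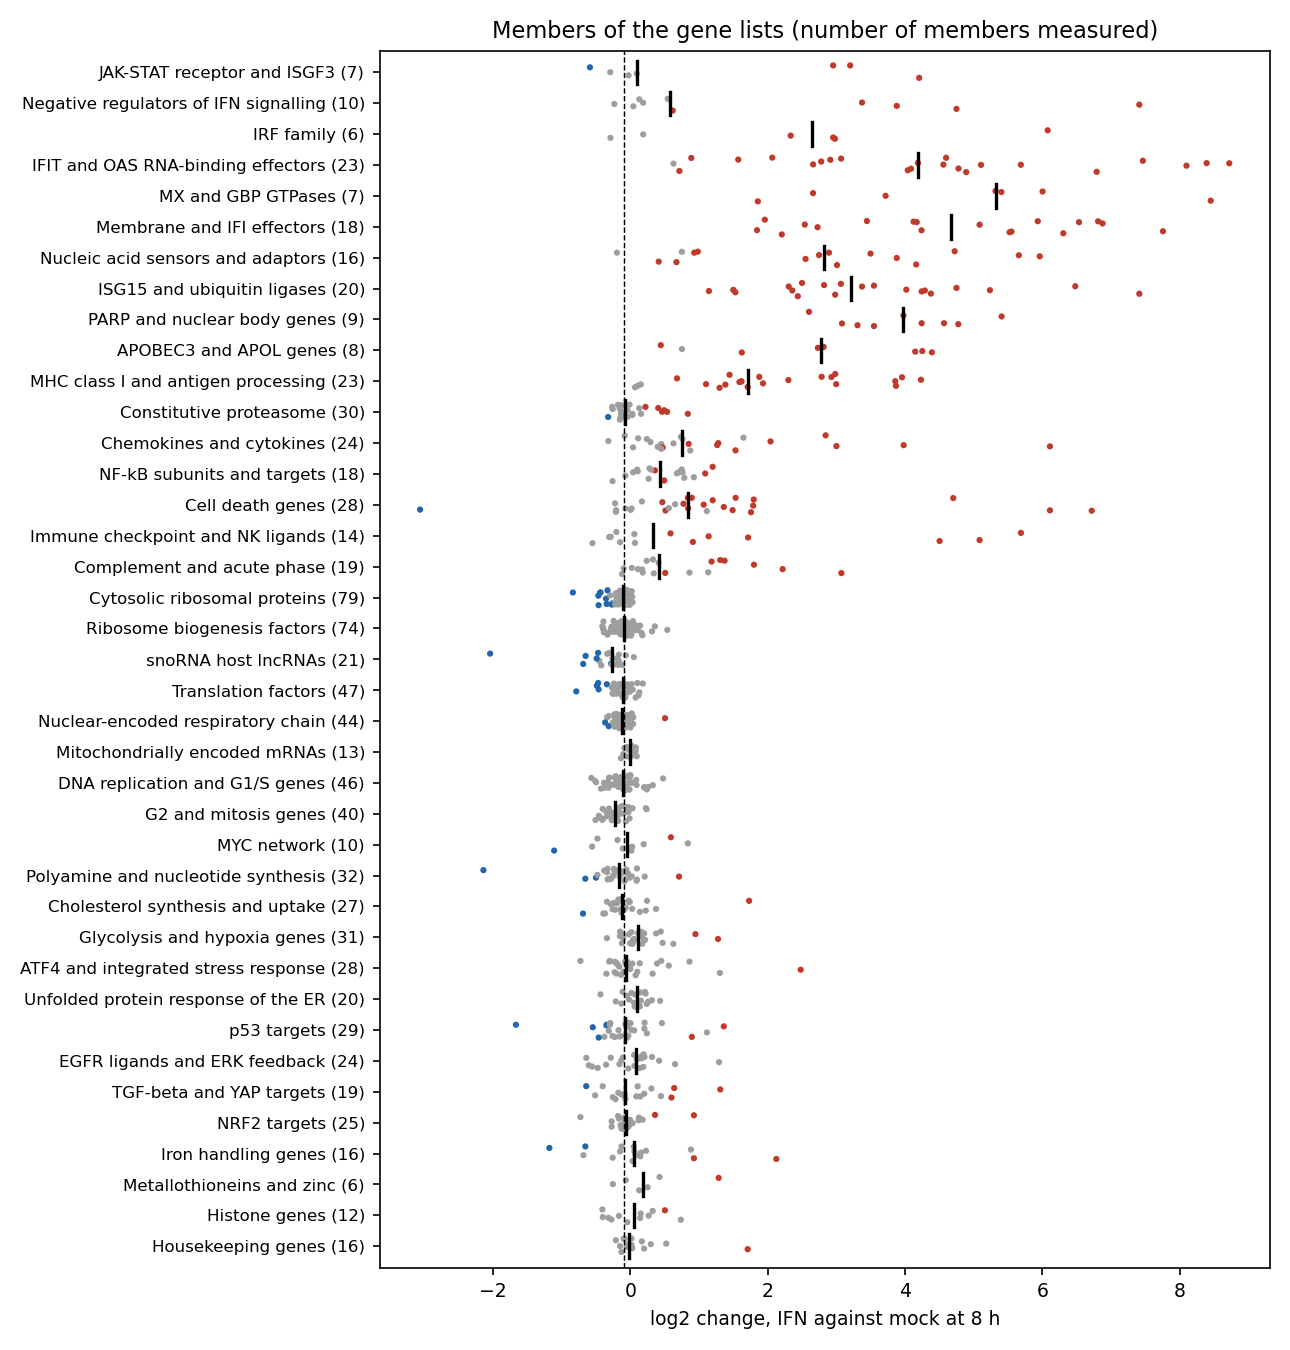
Log2 change between IFN and mock at 8 h (horizontal axis) of each measured gene in 39 lists, 1 point per gene (red called higher, blue called lower, grey not called; vertical jitter is random), with a black bar at the list's median and a dashed line at the median of all genes (-0.10). The antiviral, presentation and signalling lists reach far to the right. The ribosome, replication and metabolic lists gather around the dashed line apart from single genes such as ODC1, ZMAT3 and ACO1. The G2 and mitosis list (median -0.23) and the snoRNA host list (median -0.27, with DANCR) lie lower.

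The largest falls were spread over unrelated functions. Among called genes whose groups did not overlap and whose higher group averaged at least 5 TPM, TNFRSF10D was followed by FAM171A1, ODC1, DANCR, CERK, NT5DC2, RFLNB, BLOC1S6, ZMAT3, ENSG00000280852, ATPSCKMT and APPL2, between -2.21 and -1.42, with limma adjusted p up to 0.00367. FAM171A1 went from 10.6, 9.55 and 9.96 TPM to 1.32, 1.04 and 1.84 TPM. CERK, which phosphorylates ceramide, went from 24.4, 24.7 and 23.6 TPM to 5.03, 4.95 and 5.76 TPM (log2 change -2.02, SE 0.14), with very close replicates in both groups. ZMAT3, a p53-induced RNA-binding protein, went from 7.82, 5.90 and 4.23 TPM to 1.73, 0.97 and 0.859 TPM (-1.66). ENSG00000280852, annotated as a processed pseudogene that is transcribed, spread from 0.699 to 5.57 TPM in the IFN libraries and lost its call in a fit of the 2 groups alone (adjusted p = 0.0867). Bases after the stop codon were taken from the GENCODE 29 transcript with the longest coding sequence. Their median was 2280 over 50 protein-coding genes that fell by at least 1 (quartiles 760.5 to 3572). Over all protein-coding genes described it was 926 (quartiles 346 to 2145), so the ranges overlapped, and the difference was not tested. For genes that rose by at least 4 the median was 710.

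ODC1, the first and rate-limiting enzyme of polyamine synthesis, was at 122, 103 and 138 TPM in mock and 22.7, 22.1 and 37.3 TPM in IFN libraries (log2 change -2.14, SE 0.38, adjusted p = 0.000467). In the polyamine and nucleotide list 3 of 32 genes fell (9.38%, against 5.55% of all genes) and 1 rose. The other falls, named after their values were seen, were AMD1, which supplies the aminopropyl groups for spermidine and spermine, by 0.65, and IMPDH1 of guanine nucleotide synthesis by 0.50. SAT1, which starts polyamine breakdown, rose by 0.71, a call that 10 of 15 alternative settings kept. With the replicate block 8 of the 32 fell, against 14.0% of all genes. DANCR, a long noncoding RNA that hosts a snoRNA, was at 51.1, 58.0 and 63.2 TPM in mock and 9.21, 14.4 and 17.1 TPM in IFN libraries (-2.04, SE 0.18). Of 21 snoRNA host genes 6 fell (28.6%, against 5.55% of all genes) and 0 rose (median -0.27). SNHG5 fell by 0.49 and SNHG29 by 0.28, the latter a call that 12 of 15 alternative settings kept.

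Ribosomal protein transcripts made up at most 19.3% of all TPM in a library, and small changes there moved many transcripts. The 79 genes summed to 169498, 192670 and 168835 TPM in mock and 150291, 174468 and 158317 TPM in IFN libraries. The groups overlapped, and within each pair of same-numbered libraries the sum was lower with IFN. The median of the 79 genes, -0.11, was close to the -0.10 of all genes. Of them 9 were lower (11.4%, against 5.55% of all genes) and 0 higher. The count was 2 after median-of-ratios rescaling and in a fit of the 2 groups alone, 2 to 11 with 1 library left out, and 13 with the replicate block. RPL23 stood apart. It went from 2652, 3236 and 2896 TPM to 1372, 1679 and 1896 TPM (log2 change -0.84, SE 0.13, adjusted p = 9.97e-05), the largest loss in TPM of any called gene. RPL4, RPL6 and RPS7, also among the 5 largest losses, changed by -0.27, -0.46 and -0.44, and 10, 11 and 11 of 15 alternative settings kept the call. Of 47 translation factors 5 were lower (10.6%, against 5.55% of all genes), 3 to 6 with 1 library left out and up to 13 under other settings. Among them was EIF4B, a helper of the cap-bound helicase, from 270, 266 and 219 TPM to 145, 136 and 154 TPM (-0.79, SE 0.09). Ribosome biogenesis, which the series' title names, had 1 lower and 0 higher of 74 genes (median -0.09), the lower being RRP1B with -0.38, a call that 7 of 15 alternative settings kept. With the replicate block 10 were lower (13.5%) and 2 higher (2.70%), against 14.0% and 8.81% of all genes.

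Other programmes of a dividing tumour line had few called genes in the main fit. Of 46 DNA replication and G1/S genes and of 40 G2 and mitosis genes 0 were called by limma. Over all genes 6.16% were called higher and 5.55% lower. Of the 40 mitosis genes 37 lay below 0, as did most of all genes, whose median was -0.10. The median of the mitosis list was still lower, at -0.23. That shift of the list was not tested. With the replicate block 6 replication genes were lower (13.0%) and 1 higher, and 3 mitosis genes were lower (7.50%), against 14.0% of all genes called lower. Likewise 0 of 13 mitochondrial mRNAs and 0 of 20 genes of the unfolded protein response were called. Of 24 EGFR and ERK feedback genes 0 were called. At the shares over all genes, lists this short would hold few calls in any case. In the replicate block 6 genes of the unfolded protein response were higher (30%) and 1 lower (5%). Of the EGFR list 2 were higher there (8.33%) and 3 lower (12.5%). The shares of all genes with the block were 8.81% and 14.0%. At an unadjusted p under 0.05 limma gave 2 higher and 7 lower genes of DNA replication, 0 of mitosis, 0 mitochondrial mRNAs, 3 higher and 1 lower of the unfolded protein response, and 2 higher and 4 lower of the EGFR list. Of 29 p53 targets 2 rose (6.90%) and 4 fell (13.8%), against 6.16% and 5.55% of all genes, and 1 to 3 fell with 1 library left out. Of 28 ATF4 targets only WARS1 was called, and of 27 cholesterol genes STARD4 rose and MVK fell. WARS1, the tryptophanyl-tRNA synthetase, went from 142, 112 and 128 TPM to 770, 761 and 618 TPM (log2 change 2.48, SE 0.14). STARD4, a sterol carrier, rose by 1.73. In iron handling, SLC25A28 (mitoferrin 2), which carries iron into mitochondria, rose by 2.13, and ACO1, the cytosolic aconitase that doubles as iron regulatory protein 1, fell by 1.18. Of 16 housekeeping genes B2M alone was called.

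Some of the genes that rose sat side by side on the chromosome. Among protein-coding genes, 14 runs of at least 3 neighbours that each rose by at least 1 held 48 of 394 such genes. The longest, of 5 genes each, were LIPA, IFIT2, IFIT3, IFIT1 and IFIT5 on chromosome 10 (89213569 to 89421001, GRCh38), GBP3, GBP1, GBP2, GBP4 and GBP5 on chromosome 1 (89006666 to 89272804), and a run on chromosome 6 with TAP2, PSMB8, PSMB9, TAP1 and a gene without a symbol (32813767 to 32859585). Others held OAS1, OAS3 and OAS2 on chromosome 12, IFITM2, IFITM1 and IFITM3 on chromosome 11, and PARP9, DTX3L and PARP14 on chromosome 3. Within a run the change differed widely: LIPA, a lysosomal lipase beside the IFIT genes, rose by 1.01 and IFIT1 by 8.72. Run members were chosen by this position rule after the values were known, and the number of runs was not tested.

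The series' title also names codon optimality in translation, for which the base composition of the transcripts can be described. The median share of G or C at the last codon position was 58.5% for genes that rose by at least 4 and 60.8% for those that rose by 2 to 4, against 58.3% over all protein-coding genes described (quartiles 43.9% to 72.7%). It was 63.1% for genes that fell by less than 1 and 54.3% for those that fell by at least 1. Every one of these medians lay between the quartiles of all genes. These libraries hold no measure of translation.

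The last question was how far the 8 h response differed from that at 12 h in the same siFLuc cells, tested as the 8 h change minus the 12 h change. By limma 1 of the 14297 genes was called (0.00699%), and 493 had an unadjusted p under 0.05. That gene was ACO1. At 8 h it was at 58.0, 51.5 and 44.6 TPM in mock and 24.5, 21.5 and 20.2 TPM in IFN libraries, and at 12 h at 61.9, 59.6 and 54.6 TPM in mock and 12.5, 11.9 and 12.2 TPM in IFN libraries. The mock values of both times overlapped, and every IFN value at 12 h lay below every one at 8 h. The difference was 1.00 (SE 0.15, adjusted p = 0.0221), a smaller fall at 8 h. The call was lost under both rescalings, in a fit of the 4 groups alone, and in 9 of the 12 fits without 1 library. Over the 446 strong rises the median difference was 0.02, with 231 larger at 8 h and 215 at 12 h, and a median SE of 0.26 for a single gene.

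**Figure D4:**
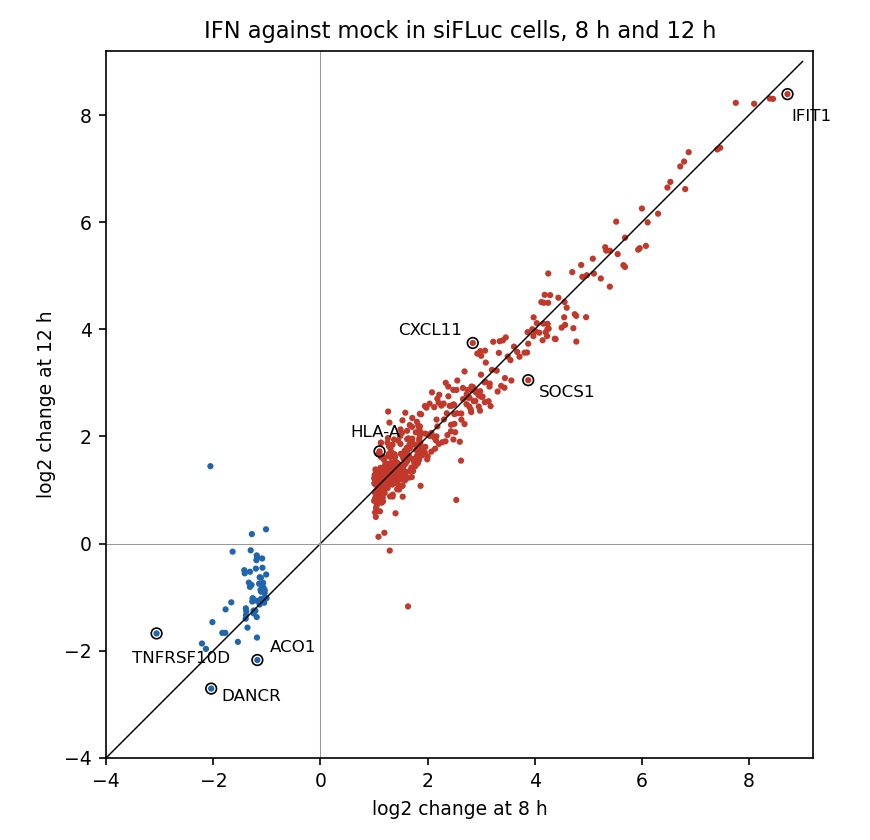
Log2 change at 12 h (vertical axis) against that at 8 h (horizontal axis) in siFLuc cells, for genes called at 8 h with a change of at least 1 (446 higher in red, 62 lower in blue), with the line of equal change. The rises follow the line, the falls scatter more, and ACO1, the gene called in the test of the difference, fell by 1.18 at 8 h and by 2.17 at 12 h.

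In separate libraries the calls recurred more often for rises than for falls, although the difference in recurrence was not tested. The comparisons share the same estimate of each gene's spread. The rises were also larger, with 446 of at least 1 on the log2 scale against 62 falls. Of the 881 higher genes 792 were also called higher at 12 h, which is 89.9% of them and 74.3% of the 12 h calls (7.46% of genes were called higher there). Of the 794 lower genes 412 were called lower at 12 h, 51.9% of them and 41.3% of the 12 h calls (6.97%). In cells given BOP1 siRNA at 8 h, 765 of the higher genes were called (86.8%, and 85.6% of the calls there, with a background of 6.25%) and 588 of the lower genes (74.1% and 41.5%, with 9.92%). All 12 largest rises were called in both comparisons. Of the 12 largest falls 10 were called at 12 h and 11 in BOP1 siRNA cells, and ENSG00000280852 had a log2 change of -0.15 at 12 h.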

How the data were processed

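Stranded mRNA libraries of A549 cells were sequenced, per the labels' protocols. The authors deposited TPM values for all genes of 24 libraries. The aligner, quantifier, annotation and genome build are not given in the sources used here, and TPM keeps no sequencing depth, so no counting error can be given. Since TPM is a share, strong rises lower every other value. Each gene's log2(TPM + 1) was fitted with limma 3.58.1 in R 4.3.3, with 8 group means over all 24 libraries and a mean-variance trend, for genes at 1 TPM or more in at least 3 libraries. P-values were Benjamini-Hochberg adjusted over all 16062 genes, with a threshold of 0.05. The script was tested on simulated data.

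Same-numbered IFN and mock libraries deviated together (r = 0.244, 0.299 and 0.461 for numbers 1, 2 and 4), though no label states a pairing. The replicate block fitted a term for each number within each time, shared by the siFLuc and BOP1 siRNA libraries of both treatments. The main fit, with its calls, SE and p-values, left the numbers out. Named genes were the 12 largest rises and falls (called, groups not overlapping, at least 5 TPM), the 5 largest gains and losses in TPM, a preset list, and up to 4 genes per list: the largest called rise and fall and the most abundant. Genes described and lists were chosen with earlier results of these data known. Other genes were named after their values were seen: JAK1, TYK2, IFNAR2, IRF2, SOCS3, AKR1B10, PSMB8, TAP2 and the run members. Alternatives were another pseudocount, filters, rescalings, no trend, fits of fewer groups or libraries, and the replicate block. Coordinates are from GENCODE 29 (GRCh38) and promoter windows from RefSeq (GRCh38.p14). Certain genes are not reported here.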

Additional observations from a re-analysis of the deposited data

Results flagged for a closer look

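ACO1, cytosolic aconitase and iron regulatory protein 1, was the gene whose response differed between the times in a direct test: the 8 h change minus the 12 h change was 0.9962 on the log2 scale (SE 0.15, limma adjusted p = 0.0221). It fell by 1.18 at 8 h and by 2.17 at 12 h in siFLuc cells.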

How the results depend on the processing

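The count of 794 lower genes became 516 after median-of-ratios rescaling, 425 in a fit of the 2 groups alone, 2000 with the replicate block, 1361 without the libraries numbered 4, and 421 to 653 with 1 library left out. The count of higher genes stayed within 1.5 times of 881 under every alternative run. In the contrast of 8 h with 12 h, genes with a more positive change at 8 h numbered 0 after median-of-ratios rescaling and 0 after quantile normalization, 2 with the replicate block, 2 without the libraries numbered 4, and 0 to 1 with 1 library left out. Genes with a more negative change numbered 1 in a fit of the groups compared, 2 with the block and 4 without the libraries numbered 4. The cause was not tested. Among the genes named in the text the block added calls for JAK1, CGAS, CXCL1 and CXCL8 and changed no other call. Signs turned for 3 genes that were not called. The log2 change at 8 h of CANX was -0.0306 after quantile normalization. The log2 change at 8 h of TYK2 was 0.0605 after median-of-ratios rescaling, 0.0002 after quantile normalization and -0.1810 to 0.2171 with 1 library left out. The log2 change at 8 h of IFNAR2 was -0.0031 to 0.1940 with 1 library left out. Without depth, counting error of low genes is unknown.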

Other observations

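The lists left out many of the genes that responded. Of the 446 genes that rose by at least 1 on the log2 scale 297 were in no list, and of the 64 that rose by at least 4 there were 8. The following were chosen after their values were seen. BATF2, a basic leucine zipper factor, led the 8 with a log2 change of 5.33, and SLC15A3, a lysosomal peptide and histidine transporter, rose by 4.44. CEACAM1, an adhesion receptor, rose by 4.26 and LAMP3, a lysosomal membrane protein, by 4.25. NT5C3A, a pyrimidine nucleotidase, went from 28.6, 34.7 and 40.3 TPM in the mock libraries numbered 1, 2 and 4 to 494, 512 and 472 TPM in the IFN libraries (3.81). TGM2, a transglutaminase, went from 385, 314 and 214 TPM to 1669, 1276 and 1013 TPM (2.12).

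Of the 62 genes that fell by at least 1, 56 were in no list. PRKCA, a protein kinase C, fell by 1.25, and TGFBR1, a receptor kinase of TGF-beta, by 1.07. Among noncoding genes, 26 of 435 lincRNAs were lower and 16 higher, and 37 of 486 antisense genes were lower and 21 higher. Of 11976 protein-coding genes 701 were lower and 795 higher, and of all genes described 5.55% and 6.16%. As a share, lincRNAs were called lower about as often as protein-coding genes and higher less often. The classes were not tested against each other, and the overall split of directions depended on the processing. Whether strand was used in counting is not given in the sources used here, so antisense genes cannot be told apart from their partners.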
